A study of Mus musculus with 2 samples.

Results

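The acyl-CoA dehydrogenases were examined as a family of 10 genes, taken by symbol from the 23284 genes of the deposited count files: Acadvl, Acad9, Acadl, Acadm, Acads, Acadsb, Acad8, Ivd, Acad10 and Acad11. They were compared between 2 libraries of primary mouse hepatocytes of strain C57BL/6, liver cells kept in culture. The control cells carried control lentivirus, and the knockdown cells carried lentivirus with an shRNA against the histone demethylase JMJD3, which is encoded by Kdm6b. Both cultures were infected 24 h after plating, kept with virus for 48 h, and then given 5 mM glucose and 10 μM forskolin, which activates adenylyl cyclase, for 6 h as an imitation of fasting. Each group was 1 library made from the pooled cells of 5 mice, so no difference below has a replicate check. The age of the mice was not stated in the labels. The title of the series names JMJD3 and mitochondrial fatty acid beta-oxidation, and the question taken from it is how transcripts of these enzymes stood when JMJD3 was reduced.

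Acyl-CoA dehydrogenases are flavoenzymes, and those of straight chains carry out the opening step of each round of fatty acid beta-oxidation in mitochondria. In mitochondria, enzymes of this family place a double bond beside the thioester of an acyl-CoA. They pass the electrons to the electron transfer flavoprotein, from which the electrons reach the respiratory chain. Most members are told apart by the substrate they take: very long, long, medium or short straight chains, or the branched chains that arise from valine, leucine and isoleucine. Acad10 and Acad11 were grouped by their kinase-like domain instead. In liver the straight-chain enzymes are known for their work in fasting, when fatty acids become the main fuel, and inherited lack of the medium-chain enzyme is known for low blood glucose on fasting.

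The control library held 11099562 counts and the knockdown library 18334366. Kdm6b stood at 33.0 CPM, the usual count scaled to library size, in the knockdown library and at 90.7 CPM in control, so the targeted gene went the way of the labels. Of 12 hepatocyte markers, 9 were measured, all 9 had ratios of knockdown over control below 1, and 6 passed as lower by the rule of size given below. For all measured genes, 50.3% had ratios below 1, 12.8% passed as lower and 15.3% as higher. The hepatocyte markers summed to 6326 CPM in the knockdown library and 10750 CPM in control. They did not differ evenly, with Fgb at 846 CPM and 3987 CPM in that order and Trf at 4254 CPM and 4282 CPM. Albumin (Alb) was at 794 CPM and 1519 CPM in that order, while Cyp2e1 was at 0 counts throughout and Fabp1 at 2 per library. Of 6 measured macrophage markers 0 passed in either direction, of 6 stellate and fibroblast markers 2 passed as lower (Reln and Pdgfrb), and of 5 endothelial markers 1 did (Stab2). Of 5 cholangiocyte markers 3 passed as higher (Krt7, Krt19 and Sox9). Krt19 and Sox9 passed only narrowly, at log2 ratios of 0.595 and 0.592 against a threshold of 0.585, and Krt7 was at 1.65. Spp1, another of them, did not pass, at 8011 CPM in the knockdown library and 7795 CPM in control. The cholangiocyte markers summed to 8282 CPM and 7974 CPM in that order. Markers of muscle and brown fat, tissues rich in these enzymes, had 36 counts in all in control and 3 in knockdown, with Ckm and Myl2 at 0 in both. Cidea, the 1 gene of these that was measured, had 34 of the counts in control and 0 in knockdown, and passed as lower. The part of these marker differences in the values of the dehydrogenases was not tested, and in such libraries fewer cells of a type and less RNA per cell cannot be told apart.

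Acadm and Ivd were the 2 members that stood at least 1.5-fold lower in the knockdown library, and Acadl was the most abundant member in both libraries. The bases just before the start sites of these 3 genes are shown because they place side by side the promoters of the lower pair and of an abundant member with a ratio of 0.879. They are RefSeq sequences on GRCm38.p6, not the mm9 build of the counts, and run 5′ to 3′ over the 250 bases before the start site. Capitals mark, on either strand, the nuclear receptor hexamer AGGTCA, the core TGACG of cyclic AMP response elements, the CCAAT box CCAAT, the GC box GGGCGG and the TATA box TATAAA.
Acadm (minus strand, chr3:153944644-153944893): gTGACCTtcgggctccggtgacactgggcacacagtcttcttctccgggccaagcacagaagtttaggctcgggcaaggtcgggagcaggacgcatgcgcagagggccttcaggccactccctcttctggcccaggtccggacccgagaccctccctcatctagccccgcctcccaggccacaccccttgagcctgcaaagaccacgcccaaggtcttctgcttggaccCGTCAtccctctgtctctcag
Ivd (plus strand, chr2:118861744-118861993): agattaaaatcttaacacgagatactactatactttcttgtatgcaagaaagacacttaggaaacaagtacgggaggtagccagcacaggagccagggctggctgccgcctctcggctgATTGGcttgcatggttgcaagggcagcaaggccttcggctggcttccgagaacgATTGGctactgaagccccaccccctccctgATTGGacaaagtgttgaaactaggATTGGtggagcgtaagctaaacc
Acadl (minus strand, chr1:66863310-66863559): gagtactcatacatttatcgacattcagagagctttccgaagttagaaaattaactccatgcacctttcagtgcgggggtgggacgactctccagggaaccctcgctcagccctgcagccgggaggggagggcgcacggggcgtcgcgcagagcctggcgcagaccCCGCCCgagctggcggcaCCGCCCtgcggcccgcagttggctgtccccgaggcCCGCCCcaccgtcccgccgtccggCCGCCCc

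The Acadm stretch held 1 AGGTCA hexamer at its far end and 1 TGACG core close to the start site, both on the reverse strand. The Ivd stretch held 4 CCAAT boxes, all on the reverse strand and read there as ATTGG, and the Acadl stretch held 4 GC boxes. At least 4 CCAAT boxes were present in 1.06% of all 32851 promoter windows of 300 bases (250 before to 50 after the start site), and at least 4 GC boxes in 5.49%. The threshold of 4 is the count seen in Ivd and Acadl and was not set beforehand. The Acadsb window also held at least 4 GC boxes, so this was not particular to Acadl. Windows were found for 9 of the 10 members, all except Acad9. Among these 9, the hexamer AGGTCA was present in 2 (Acadm and Acadvl) and in 16.3% of all windows, and TGACG was present in 4 (Acadm, Acadsb, Acad10 and Acad11) and in 20.8%. CCAAT was present in 3 of the 9 (Ivd, Acad8 and Acad11) and in 37.4% of all windows, and GGGCGG in 5 and 35.7%. TATAAA was in 0 of the 9 windows and 13.6% of all, the full element TGACGTCA in 0 and 1.79%, and TCAAGGTCA, the estrogen-related receptor element, in 0 and 0.423%. The direct repeat of AGGTCA with 1 base between was in 0 and 0.0396%. TCAAGGTCA and the direct repeat contain AGGTCA, and TGACGTCA contains TGACG, so these counts overlap. The median GC content was 62.3% over the 9 windows and 52.7% over all windows, with medians of 17 and 7 CG dinucleotides. The set of all windows was not limited to genes measured here, so these contrasts are not shown to be particular to the family. Acadm and Ivd, the lower pair, had none of the listed motifs in common in these windows.

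All 10 members were measured, meaning that the mean of their CPM over both libraries was at least 1. Levels of different genes are given as RPKM, the CPM divided by the exon length in kilobases, with exact Poisson 95% intervals that cover counting error only. In control, the long-chain enzyme Acadl was highest at 102 RPKM and Acadm followed at 84.9 RPKM. The short-chain enzyme Acads at 54.7 RPKM and the very-long-chain enzyme Acadvl at 54.3 RPKM had intervals that overlapped. Next came Acadsb at 28.0 RPKM, Acad11 at 25.8 RPKM and Ivd at 22.8 RPKM, where each overlapped its neighbour. Acad8 at 12.7 RPKM, Acad9 at 9.60 RPKM and Acad10 at 3.37 RPKM closed the order, each apart from the next. The straight-chain enzymes of the long, medium, short and very long classes thus held the 4 highest places, apart from Acad9, and the span from Acad10 to Acadl was 30.4-fold.

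In the knockdown library Acadl was again highest at 89.8 RPKM. Below it Acads at 45.0 RPKM, Acadm at 43.3 RPKM and Acadvl at 39.2 RPKM lay close together, and Acadm overlapped both Acads and Acadvl. Acadsb was at 26.2 RPKM, Acad11 at 19.1 RPKM and Ivd at 12.7 RPKM, each apart from the next. Ivd overlapped Acad9 at 10.9 RPKM, and Acad8 at 8.97 RPKM and Acad10 at 2.84 RPKM were lowest. Of the 10 places in the order, 6 were held by the same gene in both libraries, and Acadm exchanged places with Acads and Acad8 with Acad9.

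**Figure D1:**
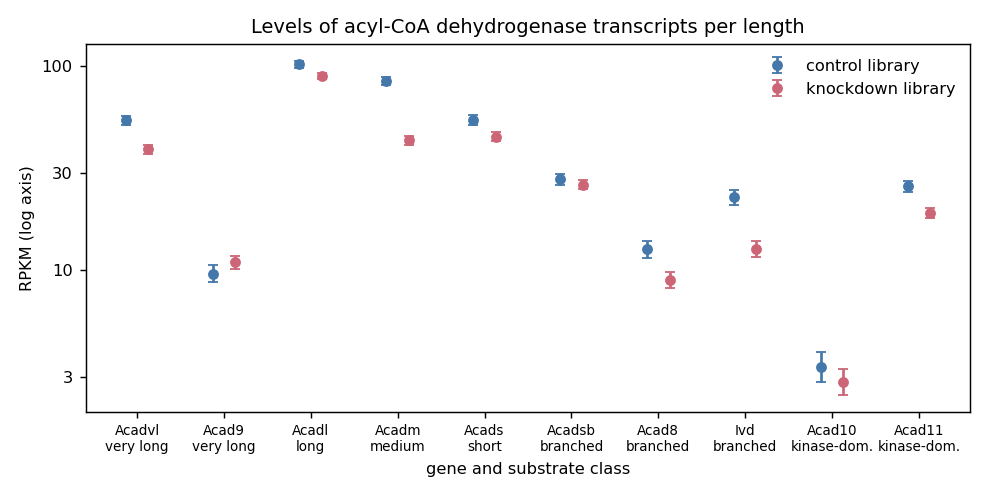
Level of each member in RPKM (log axis) in the control and knockdown libraries. Genes are grouped by substrate class, and Acad10 and Acad11 by their kinase-like domain. Points are the single library of each group and bars are exact Poisson 95% intervals; Acadm goes from 84.9 to 43.3 RPKM, while Acadl is highest in both libraries.

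Between the libraries, 9 of the 10 members had a ratio of knockdown over control below 1, where 50.3% of all 12607 measured genes did. The rule of size called a gene lower or higher when its ratio differed from 1 by 1.5-fold or more and the exact binomial 95% interval excluded 1. By this rule 2 of the 10 members were lower, Acadm and Ivd, and 12.8% of all measured genes were lower, so the share of the members was close to that background. Of the members 0 were higher, against 15.3% of all measured genes. With the rule loosened to a log2 ratio of 0.32, 5 members were lower, against 23% of measured genes, and with a 2-fold rule 0 were, against 6.19%. The median log2 ratio of the 10 was -0.36 and that of all measured genes -0.00. Intervals lay wholly below 1 for 7 members, against 32.4% of measured genes, and wholly above 1 for Acad9 alone, against 33.6%. Whether an interval excludes 1 depends on the counts as well as on the ratio, and measured genes reach down to a mean of 1 CPM. Genes of like counts were not compared, so these shares are not a like background for the members. Summed over the family, 9898 counts in control and 12199 in knockdown gave a log2 ratio of -0.39 (-0.42 to -0.35), and the summed level was 398 RPKM in control and 298 RPKM in knockdown.

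**Figure D2:**
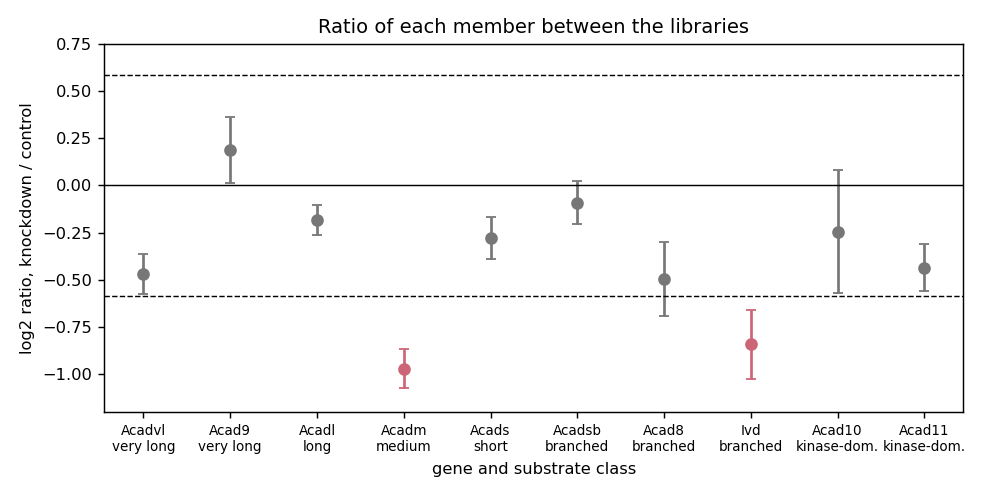
Log2 ratio of knockdown over control for each member, with exact binomial 95% intervals of the counts. Genes are grouped by substrate class, and Acad10 and Acad11 by their kinase-like domain. Dashed lines mark 1.5-fold. Acadm and Ivd (coloured) lie below the lower dashed line, and Acad9 is the only member above 0.

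Acadm, the medium-chain enzyme, had 1760 counts in control and 1446 in knockdown, at 157 CPM and 79.9 CPM. It had the lowest ratio of the 10 members, at a log2 ratio of -0.97 (-1.07 to -0.87). Of all measured genes, 6.58% had a ratio as low or lower. Its adjusted p-value in the authors' deposited table was 5.29e-05, beside a fold change of -0.97 (log2). The test behind these p-values is not stated, and with 1 library per group they hold no measured spread between cultures. In mm9 Acadm spans 153585323 to 153607396 on chromosome 3, minus strand, with 12 exons.

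Acadvl, which takes very long chains at the inner membrane, had 1316 counts in control and 1530 in knockdown, at 117 CPM and 84.5 CPM. Its log2 ratio was -0.47 (-0.58 to -0.36), below 1 beyond counting error and short of the 1.5-fold rule. Acad9, the closest relative of Acadvl, is known for its part in the assembly of respiratory complex I as well as for activity on long chains. It had 422 counts in control and 774 in knockdown, at 37.5 CPM and 42.7 CPM, and a log2 ratio of 0.19 (0.01 to 0.36). The 2 members of the very-long-chain class therefore stood on opposite sides of 1, with a difference of -0.66 (-0.86 to -0.45) for Acadvl minus Acad9. The interval of Acad9 stayed above 0 with DESeq2 size factors (0.03 to 0.37) and reached below it under the other alternatives run: its lower bound was -0.02 with library totals, -0.03 with upper quartile factors, -0.09 with the exon length trend removed and -0.06 with counts divided by 2.

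Acadl, the long-chain enzyme, had 2173 counts in control and 3077 in knockdown, at 193 CPM and 170 CPM, with a log2 ratio of -0.19 (-0.27 to -0.11). Acads, the short-chain enzyme, had 1129 and 1498 counts, at 100 CPM and 82.7 CPM, with a log2 ratio of -0.28 (-0.39 to -0.17). Both were lower in knockdown beyond counting error and by less than 1.5-fold. The interval of Acadl reached 0.00 once the trend of the ratio with exon length had been removed, at a log2 ratio of -0.08.

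By chain length, the ratios of the straight-chain enzymes did not follow the order of their substrates. From very long to short, the log2 ratios of Acadvl, Acadl, Acadm and Acads were -0.47, -0.19, -0.97 and -0.28. Differences between members are free of library scaling, and their intervals are exact conditional 95% intervals of the counts, not adjusted for the number of pairs. Acadl minus Acadm was 0.79 (0.66 to 0.91), Acadvl minus Acadm was 0.50 (0.35 to 0.65), and Acadm minus Acads was -0.69 (-0.84 to -0.54). Acadm thus stood below each of its straight-chain relatives by more than counting error. Acadvl minus Acadl was -0.28 (-0.42 to -0.15) and Acadvl minus Acads was -0.19 (-0.35 to -0.03), and the latter interval included 0 when the counts were divided by 2 (-0.41 to 0.03). Acadl minus Acads was 0.09 (-0.04 to 0.23), which was not resolved at this depth. With 1 library per group these intervals say nothing of the spread between cultures.

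The branched-chain enzymes, which act in the breakdown of amino acids, differed among themselves. Ivd, isovaleryl-CoA dehydrogenase of leucine breakdown, had 530 counts in control and 476 in knockdown, at 47.2 CPM and 26.3 CPM. Its log2 ratio was -0.84 (-1.02 to -0.66), and 8.02% of measured genes were as low or lower. Its adjusted p-value in the authors' deposited table was 0.00146. In mm9 Ivd spans 118687736 to 118707093 on chromosome 2, plus strand, with 12 exons. Acad8, isobutyryl-CoA dehydrogenase of valine breakdown, had 407 and 465 counts, at 36.2 CPM and 25.7 CPM, with a log2 ratio of -0.50 (-0.69 to -0.30). Acadsb, the short/branched-chain enzyme of isoleucine breakdown, had 1053 and 1591 counts, at 93.7 CPM and 87.9 CPM, with a log2 ratio of -0.09 (-0.21 to 0.02). Ivd was thus the lowest of the class and Acadsb the nearest to 1. The interval of Acadsb lay below 0 with library totals (-0.24 to -0.01), upper quartile factors (-0.25 to -0.03) and the exon length trend removed (-0.27 to -0.04), and included 0 with DESeq2 size factors and with counts divided by 2. Acadsb minus Ivd was 0.75 (0.54 to 0.97), Acadsb minus Acad8 was 0.40 (0.18 to 0.63) and Acad8 minus Ivd was 0.35 (0.08 to 0.62). The last of these included 0 when the counts were divided by 2 (-0.04 to 0.72). Ivd and Acadm, the lower pair, were not resolved from each other, with Acadm minus Ivd at -0.13 (-0.34 to 0.08).

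Acad10 and Acad11 carry a kinase-like domain beside the dehydrogenase domain. Acad11 had 971 counts in control and 1156 in knockdown, at 86.4 CPM and 63.8 CPM, with a log2 ratio of -0.44 (-0.56 to -0.31). Of its 3348 exon bases, 62 were shared with another gene of the files, Ccrl1, and reads over those bases would have been left out of both. Acad10, the least abundant member, had 137 and 186 counts, at 12.2 CPM and 10.3 CPM, with a log2 ratio of -0.25 (-0.57 to 0.08). The interval of Acad10 included no difference, as it did under each alternative run except removal of the exon length trend, where it was -0.66 to -0.01. Acad10 minus Acad11 was 0.19 (-0.16 to 0.54). No exon base of the other 9 members was shared with another gene of the files.

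Over the whole family, 45 pairs of members were compared, and 31 had intervals of the difference that excluded 0, or 26 when the counts were divided by 2. Acad9 differed in this sense from 9 of its 9 relatives, or 7 with counts divided by 2, Acadm from 8 either way, and Ivd from 8, or 7. Acad10, on the fewest counts, differed from 3 of 9, or 2. Pairs of genes outside the family were not compared, so these counts have no background and are not shown to be particular to the family. Of all measured genes, 32.4% had intervals of the ratio wholly below 1 and 33.6% wholly above 1. At an adjusted p-value threshold of 0.05, the authors' deposited table called Acadm and Ivd lower, 2 of the 10 members, where it called 11.8% of its 12838 genes lower. It called 0 of the 10 members higher, against 14.6% of its genes. That table compares the same libraries, so its calls are not a separate check of the ratios given here. In the authors' deposited table, adjusted p-values of the other members ran from 0.0855 for Acadvl to 0.808 for Acadsb.

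The make-up of the family, which does not depend on the scaling between libraries, shifted away from Acadm. Of all counts over the 10 members, Acadm took 17.8% (17.0 to 18.5, exact binomial 95% interval) in control and 11.9% (11.3 to 12.4) in knockdown. Acadl took 22.0% (21.1 to 22.8) in control and 25.2% (24.5 to 26.0) in knockdown, and Acad9 took 4.26% (3.87 to 4.68) and 6.34% (5.92 to 6.79). Acadsb went from 10.6% (10.0 to 11.3) to 13.0% (12.4 to 13.7), and Ivd from 5.35% (4.92 to 5.82) to 3.90% (3.57 to 4.26). Per length, Acadm held 21.3% of the summed RPKM in control and 14.5% in knockdown, and Acadl 25.7% and 30.1%. The shares per length of Acadvl (13.6% and 13.1%), Acad11 (6.48% and 6.40%) and Acad8 (3.18% and 3.01%) were close between the libraries.

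**Figure D3:**
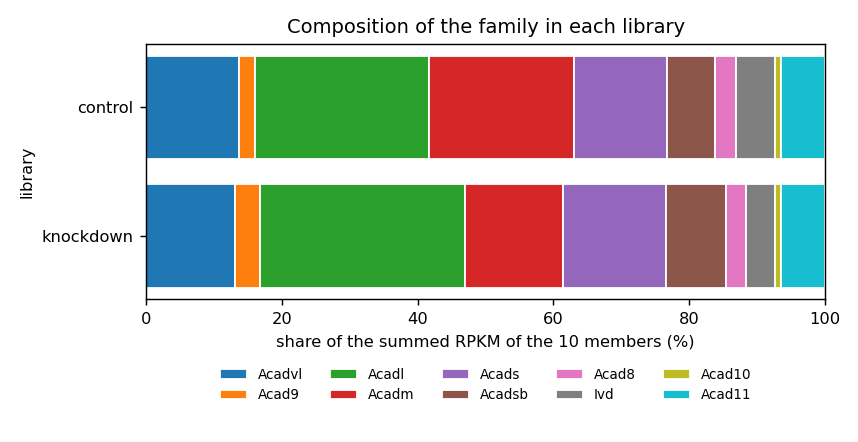
Share of the summed RPKM of the 10 members taken by each gene in the control and knockdown libraries (1 library each). The Acadm segment is 21.3% in control and 14.5% in knockdown, and the Acadl segment 25.7% and 30.1%.

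Among proteins that serve the dehydrogenases with flavin or take their electrons, 8 genes were measured. None passed as lower (0 of 8) and 1 passed as higher; the median log2 ratio was -0.14. The electron transfer flavoprotein subunits Etfa and Etfb were at -0.49 (-0.61 to -0.38) and -0.33 (-0.48 to -0.17), and Etfdh, which hands the electrons to ubiquinone, was at -0.15 (-0.24 to -0.06). The FAD synthase Flad1 was at -0.46 and riboflavin kinase Rfk at -0.09. The gene that passed as higher was the riboflavin transporter Slc52a3, listed in the files as 2310046K01Rik, at 0.86 (0.34 to 1.41) on 41 counts in control and 120 in knockdown. The mitochondrial carrier Slc25a32, which is linked to flavin and folate transport, was at 0.52 (0.22 to 0.82) and did not pass.

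Of 8 other enzymes of beta-oxidation, 2 passed as lower and 0 as higher, and the median was -0.38. These were the thiolase Acaa2 at -0.78 (-0.92 to -0.63) and the isomerase Eci1 at -0.70 (-0.86 to -0.53), and Hadha, a subunit of the trifunctional protein, was nearest to 1 at -0.22. In the breakdown of branched-chain amino acids, 3 of 11 measured genes around Acadsb, Acad8 and Ivd passed as lower and 0 as higher; the median was -0.43. Auh, a hydratase downstream of Ivd in leucine breakdown, was at -0.84 (-1.07 to -0.61). Hibch, a hydrolase downstream of Acad8 in valine breakdown, was at -0.75 (-0.97 to -0.54), and Bckdhb, a subunit of the dehydrogenase complex upstream of all 3, was at -0.71 (-0.96 to -0.47). Dbt, another subunit of that complex, was nearest to 1 at -0.12 (-0.27 to 0.03). Bcat2, on 6 control and 4 knockdown counts, was not measured.

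Of 3 related enzymes outside the 10 members, 0 passed as lower and 1 as higher. Acox2, the oxidase of branched chains and bile acid intermediates, was higher at 0.77 (0.53 to 1.01) on 197 counts in control and 541 in knockdown. Gcdh, glutaryl-CoA dehydrogenase of lysine and tryptophan breakdown, was at -0.46 (-0.60 to -0.32), and Acox3 was at -0.19. Of the 5 measured assembly factors that work with Acad9 on complex I, 0 passed in either direction and all 5 ratios lay below 1, with a median of -0.43. Timmdc1, listed in the files as 4930455C21Rik, was lowest at -0.57 (-0.75 to -0.38), with an adjusted p-value of 0.0465 in the authors' deposited table, and Tmem186 highest at -0.20 (-0.38 to -0.01), so Acad9 at 0.19 stood above each of them. Among 4 other flavin dehydrogenases that feed, or pass on, the same electrons, Dmgdh of choline breakdown was lower at -4.53 (-4.91 to -4.18), on 991 counts in control and 69 in knockdown. The related Sardh was highest at -0.03 (-0.22 to 0.16). In the order given, genes called lower were 0 of 8, 2 of 8 and 3 of 11 in the first lists. In the rest they were 0 of 3, 0 of 5 and 1 of 4, against 12.8% of all measured genes. Only the flavin supply list (1 of 8) and the related enzymes (1 of 3) had genes called higher, against 15.3%. Ratios below 1 numbered 6 of 8, 8 of 8 and 11 of 11, then 2 of 3, 5 of 5 and 4 of 4. The share over all measured genes was 50.3%. Whether the lists differ from these shares was not tested, and they share Echs1 and Etfdh.

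**Figure D4:**
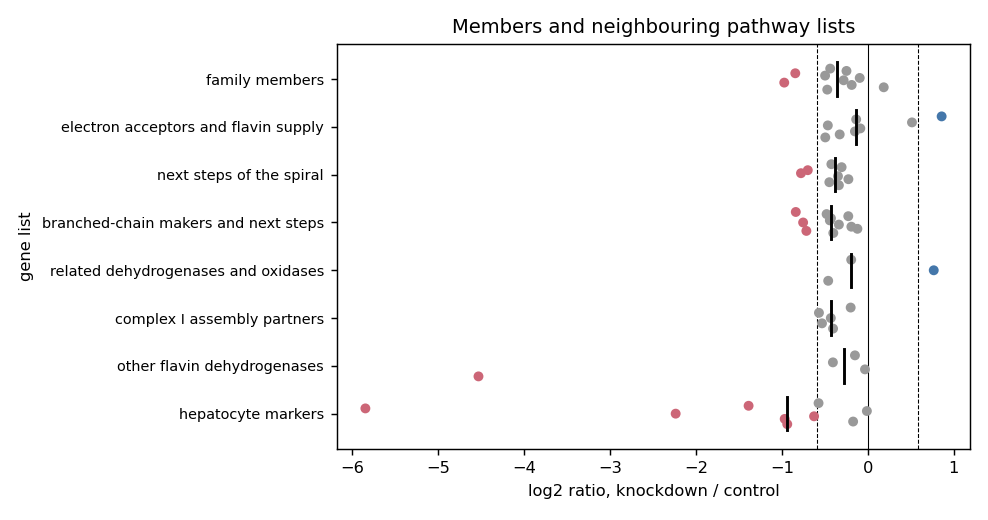
Log2 ratio of knockdown over control (horizontal axis) for each measured gene of the family, of 6 neighbouring pathway lists and of the hepatocyte markers; red points passed as lower, blue as higher, and black bars are medians. The family median is -0.36 and that of the hepatocyte markers -0.94, with Cps1 as the farthest point to the left.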

How the data were processed

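RNA was sequenced as 100 bp paired ends from 1 control and 1 knockdown library, grouped by sample title. The authors deposited raw counts of reads per gene, made with featureCounts 1.4.6-p4 on UCSC mm9 gene models, without use of strand, per the file headers. No option for read pairs was recorded, so both reads of a pair may be counted, which makes intervals too narrow. STAR 2.5.3a, Trimmomatic 0.36 and edgeR are named in the submitters' processing notes. Exon lengths in bp are as deposited. The authors' deposited table gives log2 fold changes and average log2 CPM. Its p-values and adjusted p-values, as deposited by the authors, have no stated test. The sign of its fold matched that of the count ratio, knockdown over control, for 12824 of 12824 genes.

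Counts were scaled by library totals and TMM factors (edgeR 4.0.16, R 4.3.3). Genes with a mean of at least 1 CPM were taken as measured (12607). Log2 ratios had no pseudocount and exact binomial 95% intervals (scipy 1.17.1). In medians of lists a count of 0 was set to 3 counts. With 1 library per group no p-value was computed, and the rule of size (1.5-fold, interval excluding 1) stands in its place. The procedure was tested on simulated data. All 10 members were named, and in each pathway list the highest, the lowest and those that passed; genes named beyond this (Etfb, Etfdh, Flad1, Rfk, Slc25a32 and Acox3) were chosen after their values were seen. Older symbols were matched through RefSeq names (4 genes); Coa1 was not matched. Some genes of the lists are not reported here. The members and lists were chosen with earlier results of these data known. Promoters are from RefSeq, GRCm38.p6.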

Additional observations from a re-analysis of the deposited data

How the results depend on the processing

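The number of members called lower was 2 under library totals, DESeq2 1.42.0 size factors, upper quartile factors, removal of the exon length trend (lowess), no filter, a minimum of 5 CPM and counts divided by 2. The 2 filter settings could not change it, since the lowest member, Acad10, was at 12.2 CPM in control and 10.3 CPM in knockdown. The number called lower was 5 with the fold rule loosened to a log2 ratio of 0.32 and 0 with a 2-fold rule, since the threshold itself moved. The number called higher was 0 under all 9 alternatives, which was fixed beforehand for the 2 filter settings, the counts divided by 2 and the 2-fold rule. The median log2 ratio of the members ran from -0.41 to -0.35. The 10 log2 ratios kept their sign and their side of the rule in all 50 recomputed values. In 10 of the 50, those with counts divided by 2, the ratio was the same by construction and only the interval was recomputed. Library totals, DESeq2 size factors and upper quartile factors each shift all genes by the same amount, so they are weak checks. Acadm ranged from -1.02 to -0.86, Ivd from -0.89 to -0.75, Acadl from -0.24 to -0.08 and Acad9 from 0.08 to 0.20. Of 20 levels per length, 5 left their counting interval when 1 read length was taken from each gene's length, and this left the order of the members within each library as it was. Depth limits Acad10 (137 and 186 counts) most. No paired analysis was possible because each group is 1 library.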
